A study of Mus musculus with 2 samples.

Results

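Genes of fatty acid synthesis and desaturation were followed in cultured 4T1 cells, which derive from a mouse mammary carcinoma that spreads to distant organs. The first group is control-treated (1 library, called the control library) and the other received LY500307, a selective estrogen receptor beta agonist (1 library, called the LY500307 library). The labels name no genotype, clone, dose, duration or agent for the control. The study compared RNAs between treated and control-treated 4T1 cells by sequencing total RNA depleted of ribosomal RNA. The set holds 10 of the 19498 genes with a value, taken by symbol through their Ensembl IDs: the transcription factor gene Srebf1 and the enzyme genes Acly, Acss2, Acaca, Fasn, Scd1, Scd2, Elovl6, Fads1 and Fads2. All 10 matched an ID, and all 10 reached the floor on low values given in a later paragraph.

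Cells build fatty acids in the cytosol from acetyl-CoA, which comes from citrate or acetate. Acetyl-CoA is carboxylated to malonyl-CoA, polymerised to palmitate, then elongated and desaturated for membranes, storage and signalling lipids. SREBP-1, the product of Srebf1, is released from the endoplasmic reticulum membrane by proteolysis and activates most genes of this pathway. Many carcinomas, mammary ones included, keep the pathway active even where dietary fat is available.

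Srebf1 was the lowest of the 10 genes relative to control, 1.37-fold lower in the LY500307 library (95% counting interval 1.29 to 1.45). Acss2, Fads2, Acly and Fasn were 1.28-fold, 1.24-fold, 1.17-fold and 1.17-fold lower. Acaca, Scd1, Scd2, Elovl6 and Fads1 had ratios with counting intervals that span 1. None of the 10 was 1.5-fold apart in either direction, where 1.80% of the 11384 genes that reached the floor were 1.5-fold higher and 1.97% lower. A nearer line was set at a log2 difference of 0.32. Srebf1 and Acss2 lay past it on the lower side and none on the higher side, against 11.1% and 7.15% of all genes. With a single library in each group there is no measure of spread between cultures and no test, so each difference describes these libraries. In RNA from whole cultures, fewer cells making a transcript and less of it per cell cannot be told apart.

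Recovered reads, the whole numbers behind the deposited values, totalled 14541874 in the control library and 15104003 in the LY500307 library. The 10 genes took 34166 and 32572 of them, 0.235% and 0.216%. Folds are ratios of deposited values. Their intervals are exact 95% Clopper-Pearson intervals that cover counting error only, since PCR copies without molecular identifiers are not independent molecules. The log2 ratio is LY500307 over control after a pseudocount of 1.03, and the floor is a deposited value of 33.0 in the higher library. Of 8 epithelial markers, 7 had a value, with 52413 reads in sum in the control and 47916 in the LY500307 library. Krt8 had 17073 and 14450 reads and Epcam 2195 and 2283, while Krt14 had 28 and 76. No reference profile of the line was compared. Of 9 adipocyte markers, 5 had a value, with 364 reads in sum in the control and 298 in the treated library, of which the lipid-binding protein gene Fabp4 took 350 and 292. Among the rest, Plin1 had 3 and 0 reads and Cidec 0 and 2. Of 7 lactation markers only Csn3 had a value, 31 and 39 reads, and of 6 hepatocyte markers only Apob, 1 and 7 reads. Leucocyte and macrophage markers summed to 161 and 187 reads, with 5 of 6 genes measured, of which Cd68 had 81 and 102 and Cd74 68 and 78, while the general leucocyte marker Ptprc had 2 and 4. Markers without a value were not analysed here, and the part of these lists in the results was not tested.

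The 250 bases before an annotated start were taken from RefSeq (GRCm38.p6) and are shown because Srebf1, Acss2 and Fads2 had the lowest ratios of the set, Fasn the most reads and Elovl6 the highest ratio. The deposited table does not separate starts, and these coordinates belong to RefSeq's build, not to the table. Entries were found for 7 of the 10 genes, with no entry for Scd1, Scd2 and Fads1. Windows are printed 5′ to 3′ along the gene, with the letters CCAAT (the core of NF-Y sites) and GGGCGG (the GC box of Sp1 family factors) in capitals on either strand. The windows are chr11:60210472-60210721 on the minus strand for the most downstream of 3 Srebf1 starts, chr2:155517793-155518042 on the plus strand for Acss2, chr11:120824548-120824797 on the minus strand for Fasn, chr19:10101504-10101753 on the minus strand for Fads2 and chr3:129532136-129532385 on the plus strand for Elovl6.
Srebf1: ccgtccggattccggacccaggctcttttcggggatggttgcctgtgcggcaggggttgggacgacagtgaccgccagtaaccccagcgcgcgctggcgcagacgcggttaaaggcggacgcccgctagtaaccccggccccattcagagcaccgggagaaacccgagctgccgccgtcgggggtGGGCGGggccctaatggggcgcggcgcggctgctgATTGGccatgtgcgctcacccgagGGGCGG
Acss2: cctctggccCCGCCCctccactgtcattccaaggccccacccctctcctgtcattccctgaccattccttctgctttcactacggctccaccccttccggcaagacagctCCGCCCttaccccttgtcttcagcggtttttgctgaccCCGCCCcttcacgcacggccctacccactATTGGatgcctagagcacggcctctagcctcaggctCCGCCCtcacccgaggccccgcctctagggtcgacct
Fasn: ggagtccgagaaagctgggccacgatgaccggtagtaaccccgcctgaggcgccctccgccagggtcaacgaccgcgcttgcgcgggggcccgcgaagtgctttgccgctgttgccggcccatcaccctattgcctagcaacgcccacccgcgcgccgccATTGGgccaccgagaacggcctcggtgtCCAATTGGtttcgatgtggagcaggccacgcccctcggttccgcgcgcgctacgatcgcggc
Fads2: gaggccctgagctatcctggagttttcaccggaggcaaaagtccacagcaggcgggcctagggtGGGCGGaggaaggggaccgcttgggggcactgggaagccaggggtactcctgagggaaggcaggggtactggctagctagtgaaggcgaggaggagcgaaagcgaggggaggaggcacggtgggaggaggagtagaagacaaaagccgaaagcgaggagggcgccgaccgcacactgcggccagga
Elovl6: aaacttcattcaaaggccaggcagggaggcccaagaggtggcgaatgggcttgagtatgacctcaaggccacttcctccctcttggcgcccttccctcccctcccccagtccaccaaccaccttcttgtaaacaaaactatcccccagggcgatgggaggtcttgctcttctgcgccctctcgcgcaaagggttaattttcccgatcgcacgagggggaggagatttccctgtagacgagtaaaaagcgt

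GC content of these windows was 70.8% for Srebf1 (63.2% and 54.4% at its other 2 starts), 64.0% for Acss2, 69.2% for Fasn, 64.8% for Fads2 and 56.4% for Elovl6, against a median of 52.4% over 32851 windows. The windows of Acly and Acaca, not printed here, had 68.8% and 39.2%, the latter below that median. CCAAT was found in the windows of Srebf1, Acss2 and Fasn. It occurs 3 times in Fasn, with a pair that overlaps on opposite strands as CCAATTGG. GGGCGG was found in Srebf1, Acly, Acss2 and Fads2, with 4 matches each in Acly and Acss2. All windows held CCAAT in 33.8% of cases and GGGCGG in 32.7%. These shares are per window, while the genes of the set were scored over all their windows. Srebf1, with several starts, thus had more windows in which a match could fall. The windows of Elovl6 and Acaca held neither set of letters. The E-box CACGTG, found in 6.02% of all windows, had no match in any of the 7 genes. Matches are descriptions of letters, and no binding was measured.

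Srebf1 (ENSMUSG00000020538, chromosome 11) encodes SREBP-1, the lipogenic member of the sterol regulatory element-binding proteins. It had 2387 reads with control treatment and 1853 with LY500307, a log2 ratio of −0.45. That value lay at percentile 4.76 of all genes that reached the floor. Its level in RPKM, recovered reads per kilobase of longest transcript scaled to library reads, was 38.2 (36.7 to 39.7) and 28.5 (27.3 to 29.9), and these intervals do not overlap. Its annotated exons share 109 bases with Rai1 on the opposite strand, and whether counting used strand is not given in the sources used here. Without strand, reads of overlapping genes cannot be told apart. Rai1 itself had 1692 and 1603 reads.

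Acly and Acss2 supply acetyl-CoA. Acly (ENSMUSG00000020917, chromosome 11), ATP-citrate lyase, cleaves citrate exported from mitochondria. It had 5712 and 5166 reads, 1.17-fold lower with LY500307 (1.13 to 1.22), at percentile 19.3 of the log2 ratios. Acss2 (ENSMUSG00000027605, chromosome 2), the acetyl-CoA synthetase that uses acetate, had 466 and 386 reads, 1.28-fold lower (1.12 to 1.47), at percentile 8.77. Acss2 had the fewest reads of the 10 genes and the widest interval. Its exons overlap those of Gss by 395 bases, of the antisense gene Acss2os by 335 and of Ggt7 by 197, all on the opposite strand. Acss2os had 3 and 0 reads and Ggt7 24 and 19, while the glutathione synthetase gene Gss had 517 and 473. Of the 50-base stretches of Acss2, 8.31% also occur in Acss2os or Ggt7. Of the reads of Acly and Acss2 together, Acly held 92.5% (91.8 to 93.1) in the control and 93.0% (92.3 to 93.7) in the treated library, intervals that overlap.

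Acaca and Fasn carry out the synthesis itself. Acaca (ENSMUSG00000020532, chromosome 11), acetyl-CoA carboxylase 1, makes malonyl-CoA, the committed step. It had 2160 and 2339 reads, a fold of 1.02 (0.961 to 1.08). Of the 50-base stretches of its longest transcript, 52.6% also occur in Gm5182, annotated as a processed pseudogene, which had 306 and 358 reads. With the reads of Gm5182 added, the log2 ratio of Acaca went from 0.03 to 0.04. Fasn (ENSMUSG00000025153, chromosome 11), the multi-enzyme fatty acid synthase that builds palmitate, had the most reads of the set, 11672 and 10593. Its fold was 0.854 (0.832 to 0.877), at percentile 19.8, with no 50-base stretch shared with another gene. The fold intervals of Acaca and Fasn do not overlap. Their transcripts also differ in GC content, 49.1% and 57.9%, and the part of that in the difference was not tested.

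Elovl6 and the stearoyl-CoA desaturases modify the palmitate made by Fasn. Elovl6 (ENSMUSG00000041220, chromosome 3) elongates palmitate to stearate and had 1440 and 1621 reads, the highest fold of the set at 1.06 (0.987 to 1.14). Of its 50-base stretches 4.40% also occur elsewhere, mainly in Gm11295. Scd1 (ENSMUSG00000037071, chromosome 19) and Scd2 (ENSMUSG00000025203, chromosome 19) introduce the double bond that gives oleate and palmitoleate. Scd1 had 856 and 925 reads, a fold of 1.02 (0.926 to 1.12). Scd2 had 7345 and 7735 reads, a fold of 0.992 (0.960 to 1.02). All 3 intervals span 1, and that of Scd2 is the narrowest of them.

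Scd2 was the main stearoyl-CoA desaturase transcript in both libraries. Of Scd1 and Scd2 reads, Scd1 held 10.4% (9.78 to 11.1) with control treatment and 10.7% with LY500307, a value inside the control interval. Their relatives Scd3 and Scd4 had 19 and 22 reads and 15 and 11 reads. Shared 50-base stretches made up 4.66% of the Scd1 and 4.01% of the Scd2 transcript, mostly with other Scd genes, so a small part of these reads could be split between copies.

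Fads1 and Fads2 encode the delta-5 and delta-6 desaturases of polyunsaturated fatty acid synthesis, which starts from essential fatty acids. Fads1 (ENSMUSG00000010663, chromosome 19) had 835 and 850 reads, a fold of 0.958 (0.870 to 1.06). Fads2 (ENSMUSG00000024665, chromosome 19) had 1293 and 1104 reads and was 1.24-fold lower (1.15 to 1.35), at percentile 11.7 of the log2 ratios. Its log2 ratio of −0.31 lay just inside the nearer line. The interval of Fads2 (0.741 to 0.872 as a fold) lies below 1 and that of Fads1 spans 1, but the intervals overlap at their ends.

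**Figure D1:**
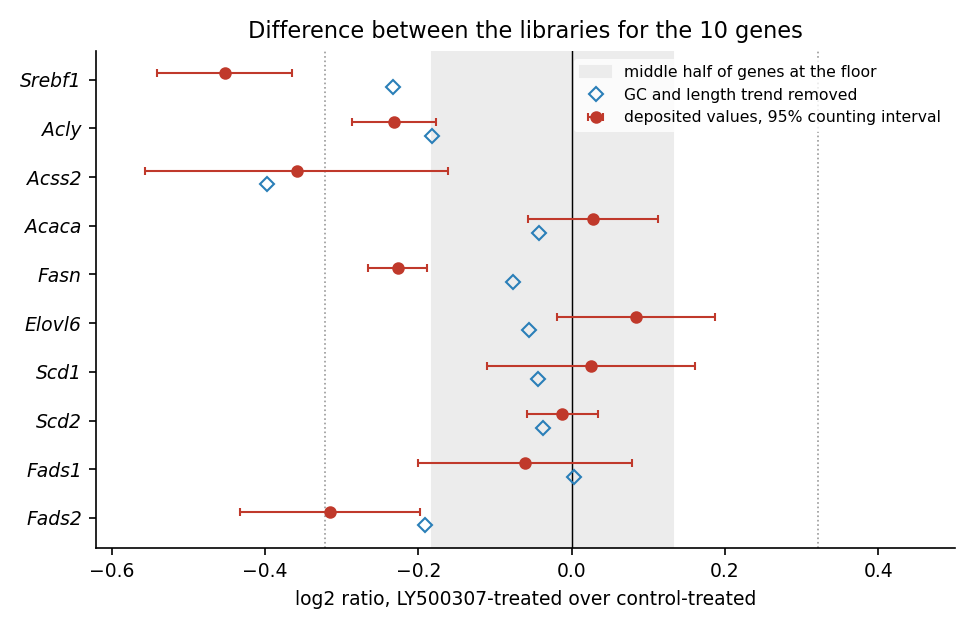
log2 ratios of the 10 genes (horizontal axis, LY500307 over control, 1 library each) from the deposited values with 95% counting intervals (red) and detrended for GC content and length (open blue diamonds). The grey band spans the quartiles of all genes that reached the floor, −0.18 to 0.13, and dotted lines mark the nearer line of 0.32. Srebf1 and Acss2 lie beyond the lower line on the deposited values, and Acss2 does so when detrended.

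Of the 10 genes, 5 had a counting interval below 1 and none above it, against 23.7% and 18.1% of all genes. These were Srebf1, Acly, Acss2, Fasn and Fads2. Whether a counting interval excludes 1 also depends on the number of reads, since fewer reads give a wider interval. All genes here include ones with fewer reads than any of the 10, down to the floor. The shares were not matched for reads, so whether 5 of 10 differs from equally counted genes was not tested. In all, 7 of the 10 lay below 0 on the log2 scale, against 52.8% of all genes. The median of the 10 was −0.14, with quartiles at −0.29 and 0.02, and that of all genes was −0.02.

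Transcript GC content moved with these ratios. Over 11349 nuclear genes that reached the floor, the log2 ratio had a Spearman correlation of −0.59 with GC content, across genes that are not independent replicates. Median log2 ratios went from 0.18 in the GC-poorest decile to −0.29 in the GC-richest. Across the 10 genes, which share both libraries, the Spearman correlation was −0.66 and the Pearson correlation −0.70, given as descriptions. Srebf1 and Fasn, with 58.4% and 57.9% GC, fell in the richest decile. Elovl6, with 44.0%, fell in the third decile, where the median was 0.08. Scd1, Acss2, Acaca and Scd2 lay between 47.1% and 49.5%, in deciles with medians of 0.06 and 0.01. Among these 4 genes of like GC content, Acss2 alone had a counting interval below 1.

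A smooth trend in GC content and transcript length, fitted over all genes, was then subtracted, which gives the detrended log2 ratio. The log2 ratio of Srebf1 went from −0.45 to −0.23, that of Fasn from −0.23 to −0.08 and that of Fads2 from −0.31 to −0.19. Acly went from −0.23 to −0.18 and Acss2 from −0.36 to −0.40. The values of Acaca, Scd1 and Elovl6, above 0 before, were −0.04, −0.04 and −0.05. Scd2 then stood at −0.04 and Fads1 at 0.00. Acss2 was the remaining gene past the nearer line on the lower side, against 5.45% of all genes, and none was past it on the higher side, against 5.66%. None was 1.5-fold apart when detrended, against 1.73% of all genes on the higher and 1.03% on the lower side. The median of the 10 was then −0.07, that of all genes −0.01, and 9 of the 10 lay below 0, against 53.6% of all genes. Of these 9, Acaca, Scd1, Scd2 and Elovl6 lay nearer 0 than their counting error on the log2 scale. That error was 0.09, 0.14, 0.05 and 0.10 to either side, so their signs are not resolved. The part of GC content and length in the ratios was not tested further.

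**Figure D2:**
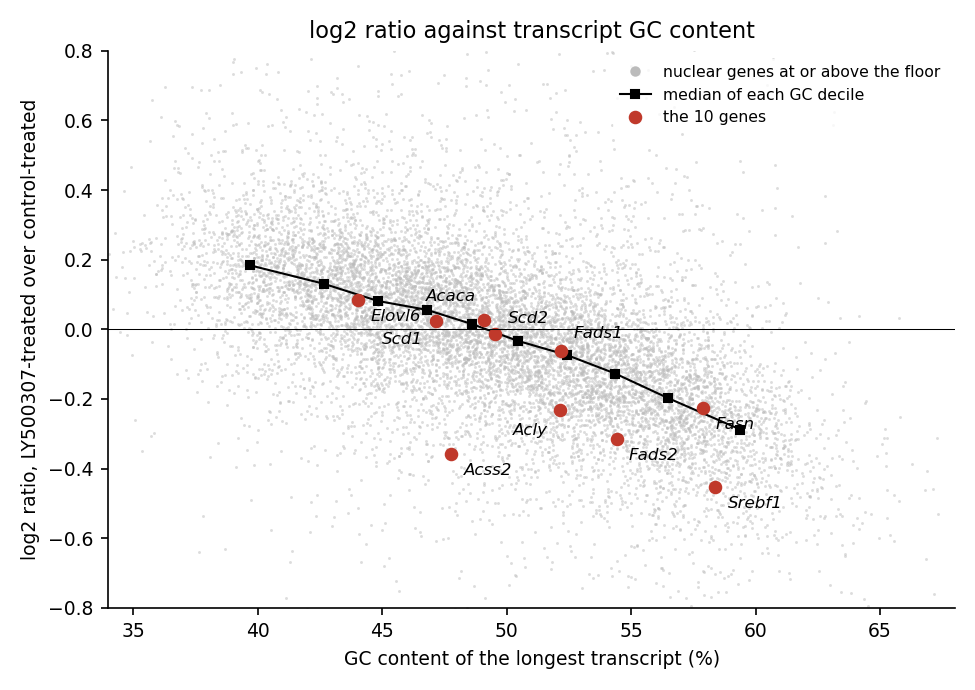
log2 ratio (vertical axis, LY500307 over control) against GC content of the longest annotated transcript in percent (horizontal axis) for nuclear genes that reached the floor (grey), with the median of each GC decile (black squares) and the 10 genes (red). Acss2, Acly, Fads2 and Srebf1 lie below the decile medians, while Acaca, Scd1, Scd2, Elovl6, Fads1 and Fasn lie near them; genes beyond 0.8 on either side are outside the frame.

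In RPKM, the levels of the set spanned 8.88 to 92.6 in the control library. Scd2 led with 92.6 (90.5 to 94.7), followed by Acly with 88.7 (86.5 to 91.1), and their counting intervals overlap. Fasn followed at 79.9 (78.4 to 81.3), above 92.4% of genes that reached the floor. Srebf1 stood at 38.2 and Fads2 at 28.2, each apart from its neighbours. Elovl6 with 16.6 (15.8 to 17.5), Fads1 with 16.6 (15.5 to 17.8) and Acaca with 15.6, whose interval overlaps theirs, could not be ordered beyond counting error. Scd1 at 12.2 and Acss2 at 8.88 (8.09 to 9.72) were lowest. In the LY500307 library the order was the same except that Acaca and Fads1, both at 16.3, changed places.

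**Figure D3:**
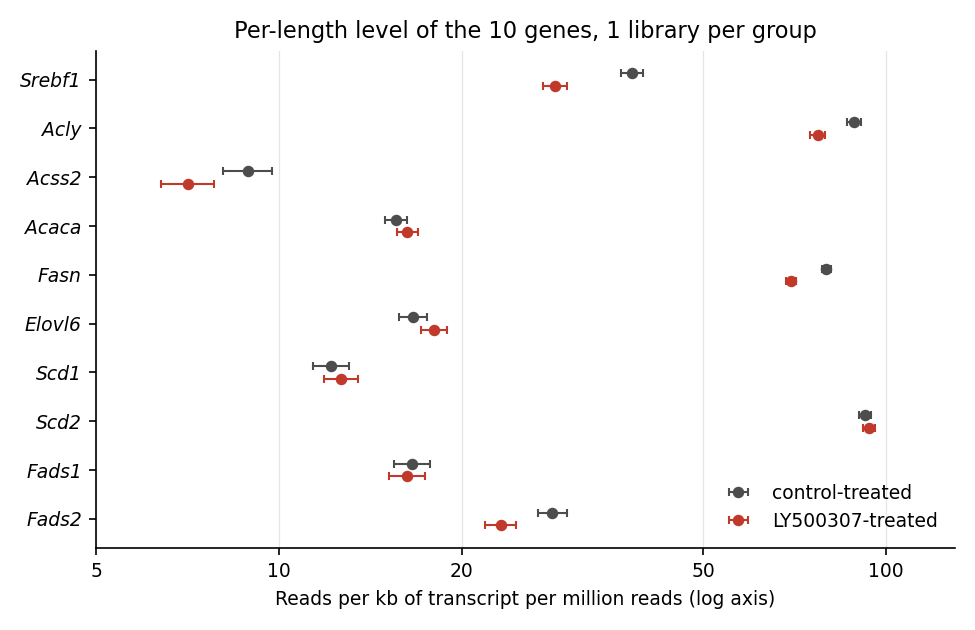
Per-length levels of the 10 genes (RPKM, log axis) in the control (grey) and LY500307 (red) library, 1 library each, with exact 95% Poisson counting intervals. Scd2, Acly and Fasn are highest in both libraries, and the points of Srebf1, Fads2, Fasn, Acly and Acss2 are lower in the treated library, with intervals that do not overlap.

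The levels depend on the transcript model. With the median length of protein-coding transcripts in place of the longest, Acaca would stand at 167 and first in order, because its annotated transcripts have a median of 889 bases and a longest of 9513. Fasn would then stand at 96.3, Scd2 at 92.6, Acly at 91.8, Fads2 at 50.7, Elovl6 at 43.5 and Srebf1 at 40.4, in that order after Acaca. That setting changes levels, not ratios between the libraries.

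Genes around the pathway were described by 9 lists with 125 entries, of which 116 had a value and 100 reached the floor. Of these 100, 18 were past the nearer line on the lower side and 1 on the higher side, against 11.1% and 7.15% of all genes. When CPM of recovered reads replaced the deposited scaling, they were 11 and 2, against 9.0% and 8.72%. Their median log2 ratio was −0.07. Detrended, the counts were 3 and 0, against 5.45% and 5.66% of all genes, and the median −0.04. The lists were written with earlier results of these data known, so their counts are descriptions.

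Regulators of SREBP and of lipogenic transcription had a median of −0.24 over 15 measured genes, with 6 past the nearer line on the lower side and 1 on the higher, against 11.1% and 7.15% of all genes. The 6 became 3 with CPM. Detrended, none of the 6 stayed past the line. The 1 gene past it was then Insig1, which went from −0.31 to −0.33, against 5.45% of all genes. Usf2 and Usf1, E-box factors that bind lipogenic promoters, were 1.37-fold (1.18 to 1.60) and 1.30-fold (1.18 to 1.44) lower. Mid1ip1, an activator of acetyl-CoA carboxylase, was 1.29-fold lower (1.17 to 1.43). Srebf2, which encodes the SREBP of cholesterol synthesis, had 2830 and 2355 reads and was 1.28-fold lower (1.21 to 1.35). The protease gene Mbtps1, whose product makes the first cut in SREBPs, had 3066 and 3146 reads, a fold of 0.966 (0.919 to 1.02). The list's median GC content was 56.0% and its detrended median −0.02, and the part of GC content in these ratios was not tested. Detrended log2 ratios were −0.23 for Usf2, −0.20 for Usf1, −0.18 for Mid1ip1 and −0.16 for Srebf2.

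Genes of citrate export and NADPH supply had a median of −0.05 over 11 measured genes, with 3 past the nearer line, all lower, against 11.1% of all genes, or 1 when detrended. Pgls, the lactonase of the pentose phosphate pathway, had 1386 and 945 reads and was 1.56-fold lower (1.43 to 1.69). Taldo1, transaldolase of the same pathway, was 1.30-fold lower (1.22 to 1.40). Slc25a1, the mitochondrial citrate carrier that feeds Acly, was 1.27-fold lower (1.16 to 1.39). The most abundant, citrate synthase gene Cs and transketolase gene Tkt, had folds of 0.981, with an interval that spans 1, and 0.827 (0.796 to 0.859). Detrended, Pgls stood at −0.43, Taldo1 at −0.27 and Slc25a1 at −0.08.

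The remaining elongases and desaturases and the list of Acacb, acyl-CoA synthetases and thioesterases held no gene past the nearer line. Of all genes, 11.1% were past it on the lower and 7.15% on the higher side. With CPM, 1 gene of the Acacb list was past it on the higher side, against 8.72% of all genes. Medians were −0.01 over 10 and −0.10 over 10 measured genes. Hsd17b12, the ketoreductase of the elongation cycle, had a fold of 0.937 (0.882 to 0.997), and the ceramide desaturase gene Degs1 one of 1.01 (0.953 to 1.06). Acsl5, an acyl-CoA synthetase, had 5338 and 5605 reads, a fold of 0.989 (0.952 to 1.03), and the thioesterase gene Acot7 3297 and 2806, a fold of 0.801 (0.762 to 0.843), just inside the line.

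Genes that use or burn fatty acids formed 2 lists. Glycerolipid assembly had a median of −0.08 over 19 genes, and 1 was past the line, against 11.1% of all genes on the lower side: Pcyt2, an enzyme of phosphatidylethanolamine synthesis, 1.34-fold lower (1.23 to 1.47). The lipid droplet gene Plin2, with 5570 and 5487 reads, stood at 0.927 of control (0.893 to 0.963) and the acyltransferase gene Gpat4, with 2733 and 2816 reads, had an interval that spans 1 (0.920 to 1.02). Fatty acid oxidation, the opposing pathway, had a median of −0.03 over 18 genes, with Eci1, Mlycd and Acads past the nearer line on the lower side, 3 genes against 11.1% of all genes, or 1 gene with CPM. Eci1, an enoyl-CoA isomerase, was 1.28-fold lower (1.12 to 1.47) and Acads, short-chain acyl-CoA dehydrogenase, 1.26-fold (1.12 to 1.41). Mlycd, which degrades malonyl-CoA, had 94 and 78 reads, and its interval spans 1 (0.571 to 1.07 as a fold). Acadl and Etfa, the most abundant, had folds of 1.04 (0.988 to 1.10) and 0.941 (0.888 to 0.998). Neither list held a gene past the line when detrended.

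Of 5 measured uptake genes, Slc27a1 and Slc27a3 were past the nearer line on the lower side, against 11.1% of all genes. These 2 became 1 with CPM and 0 when detrended. Slc27a1, a fatty acid transport protein gene, had 1423 and 1080 reads and was 1.40-fold lower (1.29 to 1.52). Slc27a3, of the same family, had 89 and 74 reads and an interval that spans 1 (0.567 to 1.08). The fatty acid-binding protein gene Fabp5, with 1858 and 2231 reads, was 1.13-fold higher.

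Among genes of AMPK, the kinase that inhibits acetyl-CoA carboxylase, the gamma subunit gene Prkag1 had 271 and 191 reads and was 1.51-fold lower (0.548 to 0.802 as a fold of control). Its upstream kinase gene Stk11 was 1.32-fold lower (1.24 to 1.41). These 2 were past the nearer line on the lower side, against 11.1% of all genes, and Prkag1 alone when detrended, against 5.45%. Prkaa1, a catalytic subunit gene with 1317 and 1620 reads, was 1.16-fold higher. Of the 6 measured genes, 3 lay above 0 and 3 below, against 52.8% of all genes below 0. Detrended, Prkag1 stood at −0.49, Stk11 at −0.14 and Prkaa1 at 0.03. The separate mitochondrial fatty acid synthesis pathway had a median of −0.04 over 6 genes. Of these, 1 was past the line on the lower side, against 11.1% of all genes. It was the malonyl transferase gene Mcat, 1.34-fold lower (1.12 to 1.60). Detrended, Mcat stood at −0.15 and no gene of that list was past the line. Ndufab1 and Mecr, the most abundant genes of that list, had folds of 0.998 (0.903 to 1.10) and 0.835 (0.751 to 0.927).

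**Figure D4:**
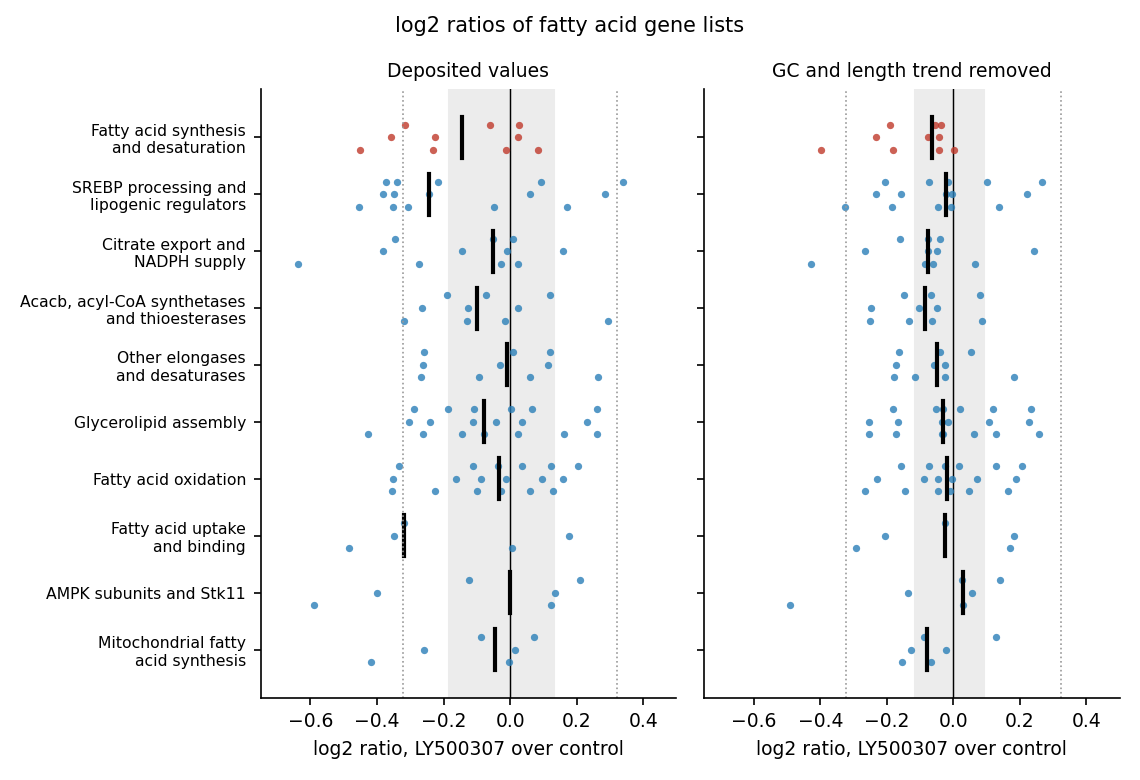
log2 ratios (horizontal axis, LY500307 over control, 1 library each) of genes that reached the floor in the fatty acid synthesis and desaturation set (red) and 9 further lists (blue), from the deposited values (left) and detrended (right). Black bars are medians, the grey band spans the quartiles of all genes and dotted lines mark the nearer line; the median of the SREBP list goes from −0.24 on the left to −0.02 on the right, that of the set from −0.14 to −0.07.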

How the data were processed

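RNA of 1 control-treated and 1 LY500307-treated 4T1 culture was sequenced after ribosomal RNA depletion with a stranded TruSeq kit, per the labels' protocols. CASAVA 1.8, Bowtie2 and mm9 are named in the submitters' processing notes without a role. The read counter, annotation, strand setting and normalization were not given in the sources used here. For each gene the authors deposited a signal, and nearly every value is a whole multiple of a step, 1.03059 in the control and 0.970322 in the treated library. Divided by the step, 99.95% and 99.96% of values came within 0.01 of a whole number, called recovered reads. A deposited 1.39e-17, which stands in 1667 places, was read as 0. Listed genes have at least 2 reads over both libraries.

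Symbols, transcript lengths and GC content came from GENCODE M21, with 19443 of 19498 IDs matched to a symbol. The pseudocount and floor are the 5th and 40th percentiles of values above 0. Genes were counted at 1.25-fold, a log2 difference of 0.32 after rounding, and at 1.5-fold. A count test on recovered reads would have no residual degrees of freedom, so none was run. The trend was a robust regression of the log2 ratio on cubic B-splines (5 degrees of freedom) in GC content and log2 length, with both moved to their 1st and 99th percentiles beyond these, over nuclear genes that reached the floor (statsmodels 0.14.6, patsy 1.0.2, scipy 1.17.1). Promoter windows are RefSeq's, cut before the start.

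The members and lists were chosen with earlier results of these data known. All 10 members are named. From each other list the rule named up to 4 genes past the nearer line and those with the most reads. A gene this rule names is not reported here. Krt14, Epcam, Plin1, Cidec, Ptprc, Scd3, Scd4, and genes that overlap or share sequence with a member stand outside that rule and were chosen after their values were seen, as were those of the closing observations.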

Additional observations from a re-analysis of the deposited data

How the results depend on the processing

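Direction and size for the 10 genes held with pseudocounts of 1 and 5, with CPM of recovered reads rescaled to the mean library size and with centring on the median gene: every log2 ratio stayed within its counting interval, although Scd2 went from −0.01 to 0.02 with CPM and 0.00 with centring. With CPM, 1 gene of the set, Elovl6, had a counting interval above 1. On the deposited scaling 18.1% of all genes had one, a share not matched for reads per gene, and the share with CPM was not computed. With the GC and length trend removed, 1 gene of the set rather than 2 lay past the nearer line on the lower side, and Srebf1, Fasn, Fads2 and Elovl6 moved beyond their counting intervals. Over the 9 lists together, the 1 gene past that line on the higher side became 2 with CPM, 0 with the trend removed and 10 without a floor, where 8.72%, 5.66% and 21.1% of all genes were past it. The count on the lower side went from 18 to 11, 3 and 22, against 9.0%, 5.45% and 20.1% of all genes. The 3 with the trend removed include Insig1, which was not among the 18. The share of Scd1 per transcript length rather than per read was 11.6% with control treatment and 11.9% with LY500307. Another transcript length moved 9 of the 10 per-length levels beyond their counting intervals, all but that of Scd2. The causes were not tested. No paired analysis was possible because each group has 1 library, and for the same reason no library could be left out. Depth limits mainly Acss2, whose interval is the widest of the set.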

Other observations

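Within gene families that surround the pathway, the balance between members differed between the libraries in some cases. These families were chosen after the values were seen, and the shares are exact 95% Clopper-Pearson intervals over reads. Of reads of the SREBP-retention genes, whose products hold SREBPs in the endoplasmic reticulum, Insig1 held 70.0% (67.7 to 72.2) with control treatment and 60.7% (58.3 to 63.1) with LY500307. Insig1, itself a known SREBP target, was 1.24-fold lower (1.13 to 1.35) and Insig2 1.22-fold higher (1.08 to 1.37). Their GC contents were 48.2% and 46.0%, and their log2 ratios went from −0.31 and 0.29 to −0.33 and 0.22 with the GC and length trend removed. Srebf1 held 45.8% (44.4 to 47.1) and 44.0% (42.5 to 45.6) of the reads of Srebf1 and Srebf2, intervals that overlap. Fbxw7, whose product marks nuclear SREBPs for degradation, was the 1 gene of the 9 lists past the nearer line on the higher side, with 318 and 428 reads (1.27-fold, 1.09 to 1.47), and stood at 0.27 with the trend removed.

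Among the elongases Elovl1, Elovl4, Elovl5, Elovl6 and Elovl7, Elovl5, which acts on polyunsaturated fatty acids, went from 27.4% (25.9 to 28.8) to 31.6% (30.2 to 33.1) of reads. Elovl1, which makes very long saturated chains, went from 26.8% (25.3 to 28.2) to 21.5% (20.2 to 22.8). Elovl6 had 1440 of 3668 and 1621 of 4053 elongase reads, 39.3% (37.7 to 40.9) and a share between 38.5% and 41.5%. Per transcript length rather than per read, Elovl1 held the most, 45.0% with control treatment and 37.5% with LY500307. Elovl5 then held 29.9% and 35.9%, and Elovl6 20.1% and 21.2%. The log2 ratios of Elovl5 and Elovl1, 0.27 and −0.26, were 0.18 and −0.17 with the trend removed. G6pdx, the first enzyme of the pentose phosphate pathway, was 1.12-fold higher (1.04 to 1.19) and Pgls, the next enzyme, 1.56-fold lower, with log2 ratios of 0.24 and −0.43 after removal of the trend.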
